A study of Mus musculus with 32 samples.

Results

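The 9 Vκ segments described here are Igkv4-60, Igkv4-61, Igkv4-62, Igkv4-63, Igkv4-68, Igkv4-69, Igkv4-70, Igkv4-71 and Igkv4-72. They were chosen by name, as every segment of the Igkv4 family with a position number from 60 to 72, and they make up 9 of the 112 segments counted. The study asked whether the choice of Vκ segments on each Igκ allele is kept in pre-B-cell clones and shapes the repertoire that those clones rearrange. All cells came from F1 mice of a cross between C57BL/6 (B6) and castaneous (Cast), so that each read over a polymorphic site can be given to its allele. Rearranged Igκ RNA was copied from a primer in the constant region and sequenced (VJ-seq), and the reads over each segment were counted for each allele.

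The clones, named 3, 4, 8, B52 and E9-3, each grew from 1 bone marrow pre-B cell held in IL-7, and rearrangement was induced by taking IL-7 away for 48 h. Clone 4 was also followed at 12, 24, 36 and 48 h without IL-7, in a separate set of libraries. The comparison sample, the pool, is labelled as cultured bone marrow pre-B cells and is tabulated with the 48 h libraries, while the methods of the study describe marrow cells taken straight from a hybrid female. Source, culture and clonality therefore cannot be told apart in a comparison of a clone with the pool. All 5 clones are compared with the same pool library, so a result in all 5 is not 5 separate results. The share of all segments that reach such agreement was not computed. Each sample is 1 library, and only clone 4 at 48 h has 2, one in each set, so the intervals and tests below carry the counting error of reads and not the spread between cultures. Unless the time course is named, clone 4 below means its deeper 48 h library. The libraries held 34291 to 320951 reads for the pool and the clones and 1174 to 10958 reads for the time course.

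A Vκ segment joins a Jκ segment when the RAG recombinase cuts at the recombination signal sequence (RSS) beside each of them. A Vκ signal is made of a heptamer that touches the coding end, a short spacer and an A-rich nonamer. A pre-B cell can rearrange again on the same allele or on the other allele, using segments still in place, and loss of the IL-7 signal lets this process start in culture. Segments that point against the constant region, as these 9 do, join by inversion of the DNA between them.

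On the mm10 assembly the 9 segments lie on chromosome 6, minus strand, within chr6:69226854-69463725, a stretch of 237 kb that ends 1263 kb before the constant gene Igkc. Igkv4-72 (chr6:69226854-69227433) is the outermost and is followed by Igkv4-71 (chr6:69243158-69243688), Igkv4-70 (chr6:69267888-69268443), Igkv4-69 (chr6:69283794-69284319) and Igkv4-68 (chr6:69304834-69305405). Igkv4-63 (chr6:69377944-69378472), Igkv4-62 (chr6:69399810-69400344) and Igkv4-61 (chr6:69416893-69417455) come next. Igkv4-60 (chr6:69463194-69463725) falls out of number order, between Igkv4-59 and Igkv4-58. The annotation lists 8 of the 9 as V genes and Igkv4-60 as a pseudogene.

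The signal sequences are shown because they sort the segments into those with an intact nonamer and those without one. They were read from the B6 reference on the coding strand, 5′ to 3′, starting at the first base after the coding end. Capitals mark the heptamer and the nonamer, and lower case marks the 12-base spacer.
Igkv4-61, 68, 69, 70, 71 and 72: CACAGTGatacagactggaACAAAAACC
Igkv4-60: CACAGTGatacagactagaACAAAAACT
Igkv4-63: CACAGTGatacagactggaAAAAAACCT
Igkv4-62: CACAGTGatacagactggaACCCTCTAA

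All 9 carried the heptamer CACAGTG, which was present in 95 of the 109 segments for which a signal was found (87.2%). The nonamer searched was ACAAAAACC, on the coding strand only and at a fixed spacing from the heptamer. It was exact in 6 of the 9 and matched at 8 of 9 bases in Igkv4-60, at 6 in Igkv4-63 and at 2 in Igkv4-62. Exact copies of both motifs were present in 36 of the 109 segments (33.0%), and the whole 28-base signal of Igkv4-68 recurred in 13 of them (11.9%). Igkv4-62 differed from Igkv4-68 by a gap inside the nonamer, as the 40 bases after each coding end show. Capitals mark the 6 bases of Igkv4-68 that Igkv4-62 lacks, and all 13 bases that follow the gap matched.
Igkv4-68 (chr6:69304794-69304833, minus strand): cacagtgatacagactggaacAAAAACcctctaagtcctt
Igkv4-62 (chr6:69399772-69399811, minus strand): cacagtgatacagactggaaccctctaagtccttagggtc

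The coding ends are also alike, which bears on how a read is given to a segment. Over the 300 bases before the heptamer, the 9 segments were 87.7% to 96.3% identical to each other, and each was 92.3% to 97.7% identical to its closest relative in the whole locus. The last 60 coding bases of Igkv4-68 and Igkv4-71 were the same, and Igkv4-72 differed from them at the 2 bases in capitals.
Igkv4-68 (chr6:69304834-69304893, minus strand): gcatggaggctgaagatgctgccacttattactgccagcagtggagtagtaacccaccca
Igkv4-71 (chr6:69243160-69243219, minus strand): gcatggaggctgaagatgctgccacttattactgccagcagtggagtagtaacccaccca
Igkv4-72 (chr6:69226854-69226913, minus strand): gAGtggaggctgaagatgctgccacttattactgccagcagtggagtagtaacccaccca

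The longest identical coding end that a member shared with any segment ranged from 10 bases for Igkv4-63 to 130 bases for Igkv4-68, which shared it with Igkv4-59. Igkv4-69 and Igkv4-70 shared their last 64 bases. The share of reads that these stretches could move between segments was not tested, and the Cast sequence of the segments was not analysed here.

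Together the 9 segments gave a minor part of every repertoire. They held 3.74% of the reads of the pool (95% Wilson interval 3.67 to 3.80). Clones 3, 4, 8, B52 and E9-3, in this order, gave them 1.51%, 5.09%, 5.93%, 3.04% and 2.10%. Clones 4 and 8 stood above the pool and the other clones below it, with intervals that did not overlap that of the pool. The time-course library of clone 4 at 48 h gave 2.15% (1.90 to 2.44), below the pool, so the direction for clone 4 turned with the library. An equal share for all segments would be 8.04%, so the 9 were below that level in every library.

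Which segment led the group changed with the sample. In the pool Igkv4-68 alone gave 48.8% of the reads of the 9 segments, and it also led in clone 4 (35.1%) and clone 8 (38.3%). Igkv4-69 led in clone 3 (41.0%), clone B52 (36.3%) and clone E9-3 (49.0%), and also in the time-course library of clone 4 at 48 h (63.1%), where Igkv4-68 had no read. By the median over the 5 clones the order was Igkv4-69 (0.920% of the library), Igkv4-68 (0.710%), Igkv4-70 (0.566%), Igkv4-61 (0.269%), Igkv4-63 (0.141%), Igkv4-60 (0.109%), Igkv4-72 (0.104%), Igkv4-71 (0.0738%) and Igkv4-62 (0.0139%). The ranges over the clones overlapped between every pair of neighbours in this order, so no place in it is separated from the next by its spread. Leaving out 1 clone moved the median of Igkv4-68 to between 0.456% and 1.25%, and without clone 3, B52 or E9-3 it ranked above Igkv4-69. The medians of Igkv4-60 (0.107% to 0.231%), Igkv4-72 (0.0783% to 0.201%) and Igkv4-71 (0.0456% to 0.157%) moved by over 1.5-fold in the same way.

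**Figure D1:**
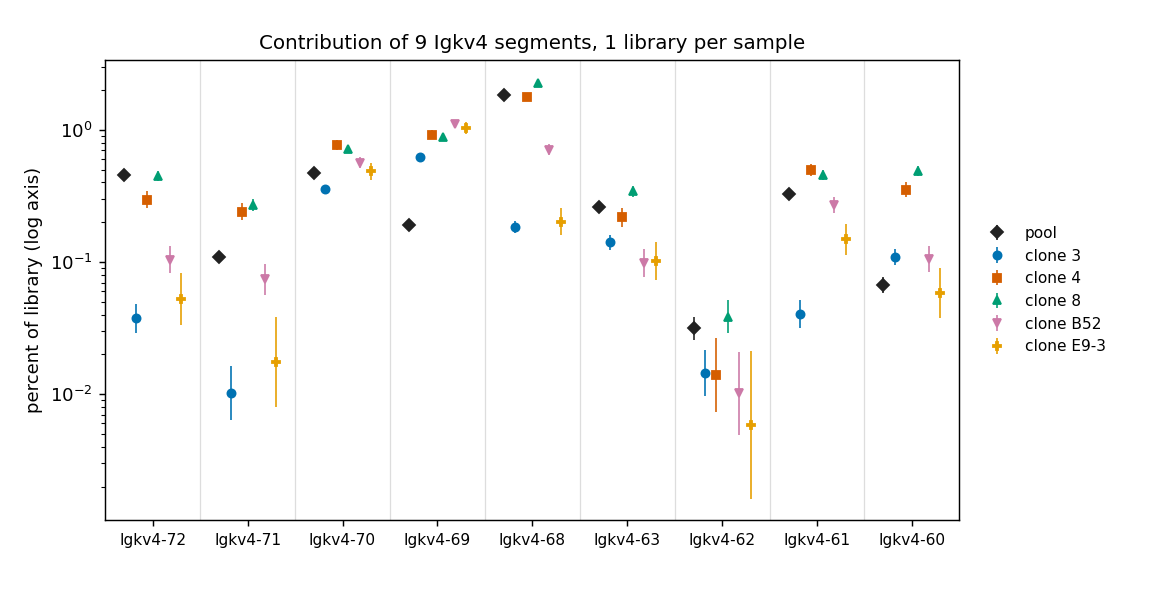
Percent of library (log axis) for each of the 9 segments in the pool and the 5 clones, with segments in genomic order from the outermost Igkv4-72; bars are 95% Wilson intervals for counting error. Igkv4-62 is the lowest point in the pool and in clones 4, 8, B52 and E9-3, and Igkv4-69 is higher in all 5 clones than in the pool.

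Igkv4-68, with an intact signal, was the segment that moved most in absolute terms. It took 1.82% of the pool, 1.79% of clone 4 and 2.27% of clone 8, but only 0.710%, 0.201% and 0.184% of clones B52, E9-3 and 3. It was near the level of the pool in clone 4, 1.25-fold above it in clone 8, with intervals that did not overlap, and lower in the other 3, by 2.56-fold for B52, 9.05-fold for E9-3 and 9.90-fold for clone 3. Among segments with at least 10 reads in the clone or the pool, a fall of at least 2-fold from the pool was found for 26%, 48.1% and 41.2% of all segments in clones 3, B52 and E9-3. In the time-course library of clone 4 at 48 h Igkv4-68 had no read.

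Igkv4-72, the outermost of the 9, followed the same order over the clones as Igkv4-68, and so did Igkv4-71. Clones 8, 4, B52, E9-3 and 3 gave Igkv4-71 0.271%, 0.241%, 0.0738%, 0.0175% and 0.0103%. The contribution of Igkv4-72 was 0.459% in the pool and, for the clones in the same order, 0.447%, 0.297%, 0.104%, 0.0525% and 0.0374%. It fell from the pool by 12.3-fold (clone 3), 8.74-fold (E9-3) and 4.41-fold (B52). Igkv4-68 had 3.83 to 6.82 reads for each read of Igkv4-72 in these 6 libraries, whereas its ratio to Igkv4-69 ran from 0.195 to 9.55. Igkv4-72, too, had no read in the time-course library of clone 4 at 48 h. Igkv4-71 had the widest range of the 9 over the clones, 26.4-fold between 0.0103% in clone 3 and 0.271% in clone 8, and it was lower than the pool (0.109%) by 10.6-fold in clone 3 and 6.21-fold in clone E9-3, the latter on 6 reads. It was higher than the pool in clone 8 and in the deeper library of clone 4, at 0.241%. In the time-course library of clone 4 at 48 h it was at 0.0456% on 5 reads, lower than the pool but with an interval that overlapped it.

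Igkv4-69 was above the pool in all 5 clones, including the 3 in which Igkv4-68 was below it. It gave 0.191% of the pool (612 reads) and 0.620%, 0.920%, 0.890%, 1.10% and 1.03% of clones 3, 4, 8, B52 and E9-3. Every clone was at least 2-fold above the same pool library, by 3.25-fold, 4.82-fold, 4.67-fold, 5.78-fold and 5.40-fold in the same order. It was also the steadiest of the 9 between clones, with a ratio of 1.78 between its highest and lowest clone. The median of that ratio was 8.37 over the 9 segments and 5.73 over the 99 segments read in all 5 clones. Counted on the B6 allele alone, as a percent of that allele, Igkv4-69 was still 2.78-fold to 4.49-fold above the pool.

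Igkv4-60 was read in every one of the 6 libraries although it is annotated as a pseudogene. It gave 0.0670% of the pool and 0.109%, 0.353%, 0.488%, 0.106% and 0.0583% of clones 3, 4, 8, B52 and E9-3. It was 7.29-fold above the pool in clone 8 and 5.26-fold above it in the deeper library of clone 4. In the time-course library of clone 4 at 48 h it was at 0.0456% (5 reads), with an interval that overlapped that of the pool. With the deeper library of clone 4, clones 4 and 8 held the highest contributions of Igkv4-60, Igkv4-61, Igkv4-63, Igkv4-68, Igkv4-70, Igkv4-71 and Igkv4-72 among the clones. With the time-course library at 48 h this held for clone 4 only for Igkv4-63.

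Igkv4-61 ranged from 0.0404% in clone 3 to 0.496% in the deeper library of clone 4, around 0.328% in the pool. The time-course library of clone 4 at 48 h gave 0.210%, below the pool but with an interval that overlapped it. Igkv4-70 was among the steadier segments, with 0.469% of the pool and 0.355% to 0.764% of the clones. It was within 2-fold of the pool in all 5 clones when both alleles were counted together. Clone 4 was above the pool in its deeper library and below it, at 0.301%, in the time-course library at 48 h. The alleles of Igkv4-70 moved in opposite directions. As a percent of the B6 allele it was 1.85-fold to 3.31-fold above the pool in the clones. On the Cast allele it gave 0.685% of the pool and 0.0567% (E9-3) to 0.220% (clone 8) of the clones. Igkv4-63, with 6 of 9 nonamer bases, gave 0.261% of the pool and 0.0984% to 0.344% of the clones.

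Igkv4-62, the segment with the gap in its nonamer, was the rarest of the 9 in 5 of these 6 libraries, and in clone 3 it was the rarest but for Igkv4-71. It had 101 reads in the pool (0.0315%), and clones 3, 4, 8, B52 and E9-3 gave 24, 9, 46, 7 and 2 reads (0.0145%, 0.0139%, 0.0386%, 0.0101% and 0.00583%). A nonamer with 4 or fewer matching bases was found in 2 of the 109 segments, Igkv4-62 and a segment of the Igkv1 family. Whether the signal sequence has a part in the low count was not tested.

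The counts past the 2-fold threshold varied with the clone. A rise of at least 2-fold was met by 1, 3, 3, 1 and 1 of the 9 in clones 3, 4, 8, B52 and E9-3, where 26%, 26%, 25.2%, 22.1% and 22.5% of all segments met it. A fall was met by 5, 1, 0, 4 and 6 of the 9, against 26%, 21.2%, 20.4%, 48.1% and 41.2% of all segments. With the time-course library of clone 4 at 48 h instead, the 5 clones together had 7 rises in place of 9. They had 18 falls in place of 16, and clone 4 then had more falls than rises. The share over all segments was not computed with that library. All these counts are thresholds of size on single libraries, with no test. The 3 segments outside the set whose profile over the 6 libraries was most like that of the 9 as a sum were Igkv4-80, Igkv19-93 and Igkv4-57-1, with mean absolute differences of 0.277, 0.297 and 0.329 in centred log2 percent.

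**Figure D2:**
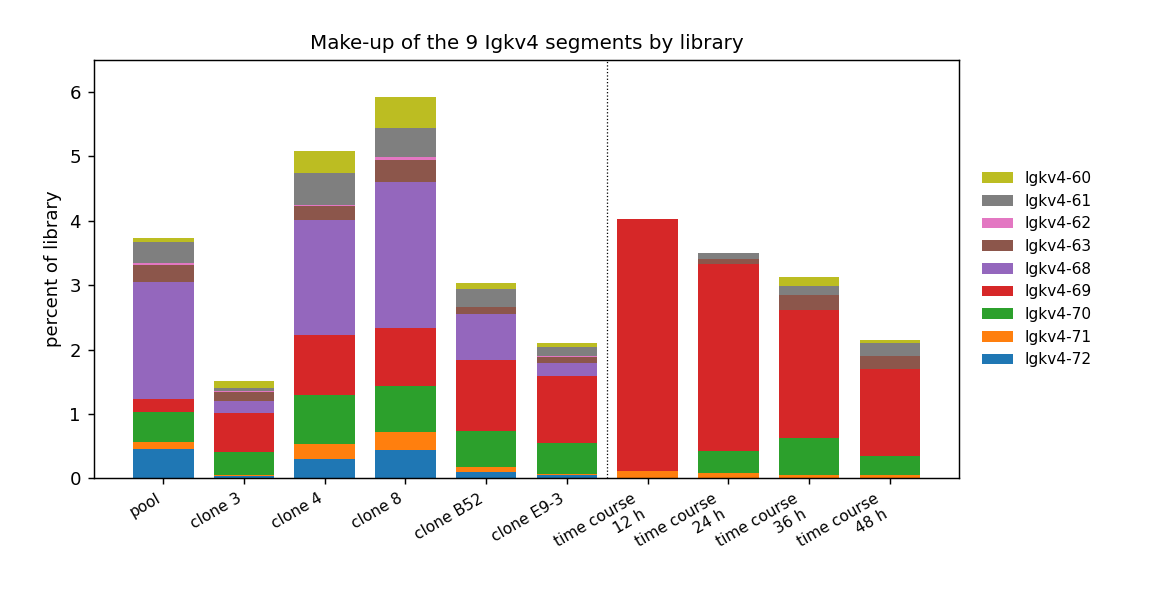
Stacked percent of library for the 9 segments in the pool, the 5 clones and the 4 time-course libraries of clone 4 (right of the dotted line). Igkv4-68 fills much of the pool, clone 4 and clone 8 and is missing from all 4 time-course bars, where Igkv4-69 leads.

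The reads of the 9 segments came mostly from the B6 allele. The B6 share of their summed reads was 92.04% in the pool (91.5 to 92.5) and 82.4%, 98.5%, 97.9%, 93.4% and 81.7% in clones 3, 4, 8, B52 and E9-3. The B6 share of all other segments was 56.1%, 50.7%, 70.3%, 60.7%, 64.9% and 53.1% in the same libraries. The B6 share of the 9 was above that of the other segments in each library, and the gap remained when each allele was scaled to its own total. The neighbouring stretch Igkv4-50 to Igkv4-59 was also mostly B6, with 95.6% in the pool and 61.6%, 92.9%, 87.2%, 88.4% and 71.5% in these clones, so in the pool its B6 share was above that of the 9. On the Cast allele the 9 segments gave 0.699% of the pool's reads and 0.279% to 0.831% of the clones' reads, against 5.99% and 2.43% to 9.23% on the B6 allele.

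For 4 of the 9 segments no Cast read was counted in any of the 10 libraries. Igkv4-62, Igkv4-68 and Igkv4-72 had B6 reads in 6 of these libraries and Igkv4-60 in 8. The rest held no read of them on either allele. Igkv4-68 had 10570 B6 reads and 0 Cast reads, which allows a Cast share of up to 0.0284%. Igkv4-72 had 2349 B6 reads (up to 0.128%), Igkv4-60 had 1313 (up to 0.228%) and Igkv4-62 had 189 (up to 1.59%). These limits use reads summed over libraries and are higher in any single one. In the pool alone they were 0.0513%, 0.204%, 1.40% and 2.97% for Igkv4-68, Igkv4-72, Igkv4-60 and Igkv4-62. Over all segments with at least 20 reads in the 10 libraries, 14 of 105 had no Cast read (13.3%). In the neighbouring stretches of the family the number was 2 of 9 for Igkv4-50 to Igkv4-59 and 1 of 8 for Igkv4-73 to Igkv4-81. No member lacked B6 reads. Igkv4-71 had 3 Cast reads in all, 1 each in the pool and in the 36 h and 48 h time-course libraries, against 910 B6 reads. The remaining 4 segments carried all but 1 of the 1865 Cast reads of the pool and clones, with 1189 for Igkv4-70, 494 for Igkv4-69, 104 for Igkv4-63 and 77 for Igkv4-61. Reads were aligned to a hybrid B6/Cast assembly with Cast bases substituted at polymorphic sites. Whether this alignment lost a read of a Cast segment or placed it on another segment was not tested.

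Over 80% of reads came from B6 for 8 of 9 segments in the pool, where 35.6% of all segments with at least 10 reads met this level. In clones 3, 4, 8, B52 and E9-3 it was met by 6 of 9, 8 of 8, 9 of 9, 8 of 8 and 4 of 7 members, and by 34.3%, 50.5%, 48.5%, 40.6% and 34.7% of all segments. None of the 9 passed 80% on Cast, where 8.91% of all segments did in the pool and 18.6%, 7.77%, 12.9%, 12.5% and 10.5% did in these clones. Of the 54 pairs of a segment and a library, 24 held a Cast read and 2 held more Cast than B6 reads. Those 2 pairs were Igkv4-70 in the pool and Igkv4-63 in clone E9-3.

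**Figure D3:**
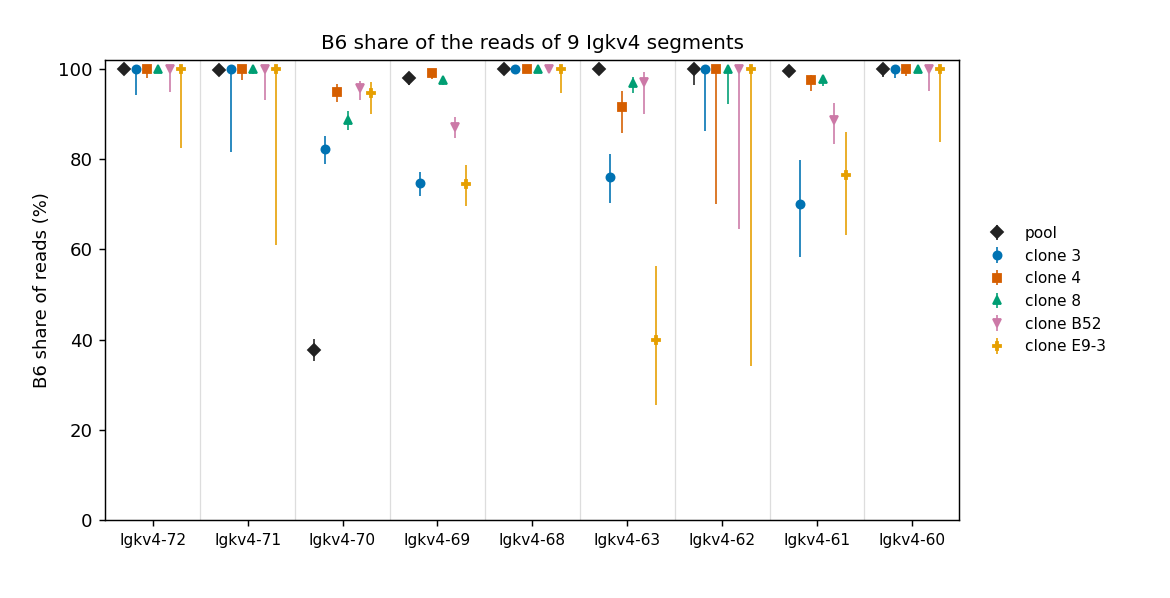
B6 share of reads for each segment in the pool and the 5 clones, with 95% Wilson intervals for counting error. Igkv4-60, Igkv4-62, Igkv4-68 and Igkv4-72 stay at 100%, and the points under the middle of the axis are Igkv4-70 in the pool (37.7%) and Igkv4-63 in clone E9-3 (40.0%).

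Igkv4-70 was mostly Cast in the pool and mostly B6 in every clone. The pool had 568 B6 and 937 Cast reads, a B6 share of 37.7% (35.3 to 40.2). The share was 82.3% in clone 3 (484 B6 and 104 Cast reads), 94.9% in clone 4 (469 and 25) and 88.7% in clone 8 (763 and 97). Clones B52 and E9-3 reached 95.7% (374 and 17) and 94.6% (158 and 9). No clone interval overlapped that of the pool. By Fisher's exact test on the reads, two-sided and adjusted over all segments with at least 20 reads in the 2 libraries together, the difference was called in 5 of 5 clones, with the weakest adjusted p being 3.89e-49 in clone E9-3. A higher B6 share was called in 24.3%, 39.8%, 33%, 33% and 23.5% of all segments in clones 3, 4, 8, B52 and E9-3. The test compares libraries and not conditions.

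Igkv4-61 and Igkv4-63 shifted the other way. In the pool Igkv4-61 had 1048 B6 and 4 Cast reads (99.6% B6), and Igkv4-63 had 838 and 0. The B6 share of Igkv4-61 was 70.1%, 97.5%, 97.8%, 88.7% and 76.5% in clones 3, 4, 8, B52 and E9-3. That of Igkv4-63 was 76.1%, 91.5%, 96.8%, 97.1% and 40.0% in the same order, the last on 14 B6 and 21 Cast reads (25.6 to 56.4). Both were called lower than the pool in all 5 clones by the same test, each time against the same pool library. With 0 Cast reads there, the pool's share of Igkv4-63 could only be met or undercut. The weakest adjusted p by that test was 0.00350 for Igkv4-61 (clone 4) and 0.0104 for Igkv4-63 (clone B52, exact test on 2 Cast reads). The lowest shares of both fell in clones 3 and E9-3. With counts divided by the excess variation given in the next paragraph, all 5 calls of Igkv4-61 and 4 of the 5 calls of Igkv4-63 were lost.

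Igkv4-69 was 97.9% B6 in the pool and 74.6%, 99.0%, 97.5%, 87.1% and 74.5% B6 in clones 3, 4, 8, B52 and E9-3. It was called lower than the pool in clones 3, B52 and E9-3 and did not pass the test in clone 4 (adjusted p = 0.261, exact) or clone 8 (adjusted p = 0.975, exact). Clones 3 and E9-3, with the lowest B6 shares of Igkv4-61, Igkv4-63 and Igkv4-69, were also the libraries with the lowest B6 share over all other segments. Over these clones in the same order, a lower B6 share was called for 3, 2, 2, 3 and 3 of the 9 and for 43.7%, 14.6%, 25.2%, 26.2% and 36.3% of all segments. When counts were divided by 19.03, the excess over counting error between the 2 libraries of clone 4 at 48 h, the 5 calls of Igkv4-70 were kept and the 13 lower calls fell to 2, Igkv4-63 (adjusted p = 0.0264, exact) and Igkv4-69 (adjusted p = 0.0251, exact), both in clone 3. Over all segments and clones the same division left 11.1% of tests called higher, from 30.7%, and 9.92% called lower, from 29.2%.

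Clone 4 was sequenced at 48 h in both sets of libraries, which shows how far the 9 segments repeat. Igkv4-68 had 1156 reads in the deeper library and 0 in the time-course library, which is at least 65.3-fold lower at a floor of 3 reads per library. At the deeper library's level, 196 reads would have been counted. Igkv4-72 went from 192 reads to 0, at least 10.8-fold lower, and Igkv4-62 from 9 reads to 0. Igkv4-68, Igkv4-72 and Igkv4-62 were also at 0 at 12, 24 and 36 h. Of all segments with at least 10 reads in clone 4, 5 had no read in any time-course library (4.85%), and Igkv4-68 and Igkv4-72 were 2 of them.

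The other segments of clone 4 were present in both sets at different levels. Igkv4-60 fell from 0.353% to 0.0456%, Igkv4-71 from 0.241% to 0.0456%, Igkv4-70 from 0.764% to 0.301% and Igkv4-61 from 0.496% to 0.210%. Igkv4-63 was at 0.218% and 0.192%, and Igkv4-69 was at 0.920% and 1.36%. The B6 share of Igkv4-70 was 94.9% (92.6 to 96.5) in the deeper library and 78.8% (62.2 to 89.3; 26 B6 and 7 Cast reads) in the time-course library, where it did not pass 80%. A difference of at least 2-fold was thus found for 6 of 8 segments, all lower in the time course (20.4% of all segments), and a rise for 0 of 8 (11.7%). The contribution of the 9 together was 5.09% in one library and 2.15% in the other.

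The gap for Igkv4-68 between the 2 libraries of clone 4 was wider than the 12.3-fold range over the 5 clones. Igkv4-59, which shares a 130-base coding end with Igkv4-68, had 1285 B6 and 0 Cast reads in the deeper library and 64 B6 and 30 Cast reads in the time-course library. The libraries had more than 1 read length, and which library had which is not given in the sources used here. The part of read length in these differences was not tested.

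Within the time course Igkv4-69 was the main segment of the 9. It had 68 reads at 12 h (3.91%, interval 3.10 to 4.93), 34 at 24 h (2.90%), 140 at 36 h (1.97%) and 149 at 48 h (1.36%, interval 1.16 to 1.59). The level was lower at each later time, and the contribution at 48 h was below that at 12 h by Fisher's exact test on the reads (adjusted p = 1.03e-10 over 74 segments, of which 9.46% were called lower). With counts divided by 33.9, the excess variation between the 2 libraries of clone 4 at 48 h, the adjusted p was 1 (exact). Without Igkv19-93, the most abundant segment at 12 h, Igkv4-69 went from 9.54% to 1.49% (adjusted p = 2.68e-27, exact).

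The other segments had few reads in the time course. Igkv4-70 had 0, 4, 41 and 33 reads at 12, 24, 36 and 48 h, and its rise from 0% to 0.301% had an adjusted p of 0.0269 (exact), among 60.8% of segments called higher. That call was lost with the same division (adjusted p = 1, exact) and when Igkv19-93 was left out (adjusted p = 0.238, exact). Igkv4-61 had 0, 1, 10 and 23 reads (adjusted p = 0.0809, exact), and Igkv4-63 had 0, 1, 17 and 21 (adjusted p = 0.120, exact). A count of 0 at 12 h allows up to 0.173% of that library, so levels such as that of Igkv4-71, with 2, 1, 4 and 5 reads, could not be followed at this depth.

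**Figure D4:**
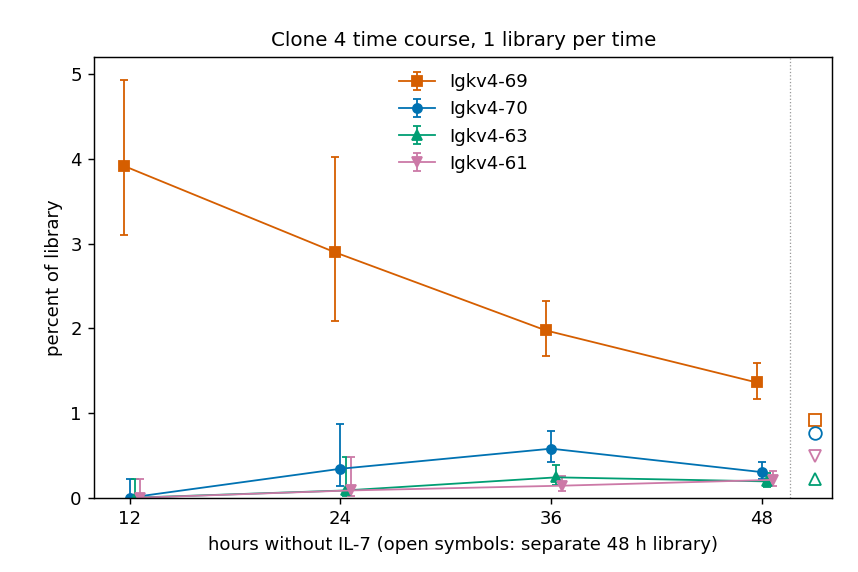
Percent of library of Igkv4-69, Igkv4-70, Igkv4-63 and Igkv4-61 in clone 4 after 12 to 48 h without IL-7 (filled, 95% Wilson intervals, shifted slightly along the time axis) and in the separate 48 h library (open). Igkv4-69 goes from 3.91% to 1.36%, and the others stay under 1%.

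Reads of the 9 segments in the time course were 100% B6 at 12 h (70 reads) and 24 h (41 reads), 93.2% B6 at 36 h and 94.1% at 48 h. All other segments were 83.6%, 78.7%, 75.6% and 76.3% B6 at these times. The Cast reads at 36 and 48 h belonged to Igkv4-69 (6 and 6), Igkv4-70 (8 and 7) and Igkv4-71 (1 and 1). With 70 and 41 reads at the early times, a Cast share of a few percent was not detectable.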

How the data were processed

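Igκ VJ-seq libraries of the pool, 5 clones and 4 times of clone 4 were used, with 1 library each (clone 4 at 48 h is in both sets); samples were grouped by their labels, and the ATAC-seq and nuclear RNA samples were not used here. The authors deposited raw counts of reads per Vκ segment and allele (HTSeq), after quality trimming and Bowtie2 alignment. The alignment was to a hybrid B6/Cast assembly, with Cast bases substituted at polymorphic sites, and the build listed is mm10. Tool versions are not given in the sources used here. The submitters' processing notes also list Trim Galore, Picard, HOMER and bedtools. PCR reads without molecular identifiers are not independent molecules, so intervals and limits cover counting error only.

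From the counts, percent of library, B6 share, 95% Wilson intervals and the limit set by 0 reads (3 reads) were computed in Python 3.11.15 with NumPy 2.4.6, pandas 2.3.3 and SciPy 1.17.1. A segment counted as B6-skewed above 80% with at least 10 reads. Two-sided Fisher's exact tests, for segments with at least 20 reads over both libraries, were adjusted by Benjamini-Hochberg over all such segments and called below 0.05. They were tried on simulated counts that held counting error only. Those counts had no added spread between libraries, so they cannot show how the calls hold under it. Likeness of profiles used centred log2(percent + 0.01). Signal sequences and coding ends came from GRCm38.p6 with the GENCODE annotation, searched within 12 bases of the annotated end and aligned with Biopython 1.88; 111 of the 112 segments were annotated. All 9 members are named. The members, lists and thresholds were chosen with earlier results of these data known. Alternatives were run for the contributions, B6 shares, counts and tests, 4 of them chosen after seeing the data, and not for the search settings of the signal sequences or the likeness of profiles.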

Additional observations from a re-analysis of the deposited data

Results flagged for a closer look

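Across 15 sets of values over the 5 clones (percent of library and B6 share of single segments and of the 9 together), 1 held a value far from the other 4. Igkv4-62 gave 0.0386% of clone 8 (46 reads), against 0.00583% to 0.0145% in the other clones, and its gap to the nearest clone was 0.736 of the whole range, above the critical value of 0.71. Chance marks about 1 in 20 such sets.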

How the results depend on the processing

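The limits of these results are the single library per sample (2 for clone 4 at 48 h, which differ by at least 2-fold for 6 of 8 segments), the likeness of the coding ends and the depth of the time course, where 0 of 1174 reads allows up to 0.256% of a library. As a percent of each allele the 9 segments gave 5.99% of B6 and 0.699% of Cast reads in the pool, and a median of 0.545% of Cast reads over the 5 clones. Their pool contribution of 3.74% became 3.93% without the most abundant segment and 1.91% without Igkv4-68. The pool's B6 share became 89.6% with each allele scaled to its own total, 78.1% over the 5 with 3 or more reads from both alleles in the sum of the 10 libraries, 84.5% without Igkv4-68 and 99.8% without Igkv4-70 (chosen after seeing the data). Leaving out each clone in turn, also chosen after seeing the data for these sums, gave median contributions between 2.57% and 4.06% (3.04% with all 5) and median B6 shares between 87.9% and 95.7% (93.4%). Of 50 pairs of a segment and a library with at least 10 reads, 43 were over 80% B6. Over all segments, 34.3% (clone 3) to 50.5% (clone 4) passed in each library. Of the 43, 22 remained when segments without a Cast read were left out (chosen after seeing the data). The pairs left out held B6 reads only, and the number of pairs still examined was not computed. At 1.5-fold 14 rises over the pool were found in place of 9 (over all segments 32.3% of cases in place of 24.4%), and at 3-fold 10 falls in place of 16 (19.3% in place of 31.3%). With counts divided by the excess variation, the lower B6 shares called among the 9 fell from 13 to 2 (over all segments from 29.2% to 9.92% of tests), and the segments of the time course called higher and lower fell from 1 to 0 in each direction (over all segments from 60.8% to 0% higher and from 9.46% to 1.35% lower). Without Igkv19-93, 0 of 4 were called higher (32.9% of all segments). Against the deeper 48 h library of clone 4, 5 of 8 were called higher (52.5% of all segments). The number with no Cast read was 4 to 5 under its alternatives. No paired analysis was possible because the VJ-seq labels carry no replicate numbers.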
